A study of Mus musculus with 3 samples.

Results

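Genes of fibroblast growth factor (FGF) signalling were followed through the cells of the fracture callus, the repair tissue that forms around a broken bone. The set held 9 named genes of the 32285 gene rows in each deposited matrix, chosen by symbol as the receptors Fgfr1, Fgfr2 and Fgfr3, the ligands Fgf2 and Fgf18, and the feedback inhibitors Spry1, Spry2, Spry4 and Dusp6. All 9 were found once in the files. They were measured across cell classes, across chondrocyte states set by the share of UMIs (unique molecular identifiers, each standing for 1 captured transcript) that came from the hypertrophy gene Col10a1, and across libraries.

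Single-cell RNA sequencing had been done on callus of female C3H/HeJ mice, a strain labelled as slow to heal fractures. The mice were 9 weeks old, had a pin placed in 1 femur and a midshaft fracture made there, and gave callus 7 days later. One group had received YKL-05-099, an inhibitor of salt-inducible kinases, at 15 mg/kg a day, another PTH 1-34, the active fragment of parathyroid hormone, at 100 µg/kg a day, and the control group the vehicle PBS, all by injection under the skin. Each group had 1 library, made with a 3′ droplet kit after collagenase digestion and with marrow avoided, and the sources used here do not say whether several mice were pooled in it. With 1 library per group no test between groups was possible, so every interval below covers counting error only and none covers the spread between mice.

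FGF ligands bind receptor tyrosine kinases at the cell surface, which signal through the adaptor FRS2, RAS and the MAP kinases ERK1 and ERK2. ERK activity in turn induces inhibitors of the same pathway, among them the Sprouty proteins and the ERK phosphatase DUSP6, and these genes are often read as a sign of pathway activity. In growth plates Fgfr3 is best known from proliferating and prehypertrophic chondrocytes, where it restrains growth, Fgfr1 from hypertrophic chondrocytes, and Fgfr2 from condensing mesenchyme, perichondrium and bone-forming cells.

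The filters kept 600 YKL, 1907 PTH and 2928 control cells, with medians of 25686, 12280 and 11681 UMIs per cell. Chondrocytes numbered 421 in the YKL, 727 in the PTH and 1539 in the control library, and each of their 6 clusters had 13 to 15 of the 15 chondrocyte markers raised. The YKL chondrocytes lay mostly in clusters 0, 1 and 2 (114, 127 and 125 cells), the PTH ones in clusters 1, 5 and 3 (180, 176 and 159 cells) and the control ones in clusters 3 and 5 (555 and 471 cells). Endothelial cells were the only other class with at least 50 cells in every library (68 YKL, 337 PTH and 204 control cells). A cluster led by the bone matrix and protease genes Ibsp, Mmp13 and Spp1 had 6 of 11 osteoblast markers raised but kept no name. Its 10 leading genes held 0 osteoblast markers and the tendon marker Fmod, so the callus had no class called osteoblasts here. Its 24 YKL, 56 PTH and 73 control cells are called the Ibsp-Mmp13-Spp1 cluster. With marked doublets kept and clusters redrawn, a cluster of 254 cells led by the same 3 genes was named osteoblast-lineage. The doublet caller marked 8 of 687 YKL, 7 of 2438 PTH and 16 of 3436 control barcodes, too few to have worked, so most doublets are taken to remain. Kept cells of the PTH and control libraries shared 1 barcode and the other pairs shared 0.

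All 9 genes are annotated as protein coding on the mouse build GRCm38. Fgfr1 lies at chr8:25513654-25575718 (+), Fgfr2 at chr7:130162451-133123350 (-) and Fgfr3 at chr5:33721674-33737068 (+). The ligand genes lie at chr3:37348346-37410108 (+) for Fgf2 and at chr11:33117430-33147400 (-) for Fgf18. The inhibitor genes lie at chr3:37639947-37644598 (+) for Spry1, chr14:105891947-105896819 (-) for Spry2 and chr10:99263231-99267489 (+) for Dusp6. Exons of Fgfr2 overlap exons of Ctbp2 on the same strand, and those of Fgf2 overlap the predicted gene Gm43439 on the same strand and Nudt6 on the opposite one. Fgfr1, Fgfr3 and Spry1 each overlap an exon on the opposite strand, of Gm16159, G630022F23Rik and Gm42922. The sources used here do not say whether strand was used in counting, so reads of such overlaps cannot be told apart.

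The upstream sequences of Fgfr2 and Fgfr3, the receptor genes with an entry in the table used, are shown. Along the chondrocyte states described below Fgfr2 went down, and Fgfr3 varied least of the receptors. The sequences are taken from RefSeq (GRCm38.p6), 5′ to 3′ on the strand of the gene, with each CpG in capitals. That of Fgfr2 covers chr7:130266809-130267058 (-), inside the longer gene span given above, that of Fgfr3 covers chr5:33721474-33721673 (+), the part of its 250 base window that lies before the first annotated exon.
Fgfr2: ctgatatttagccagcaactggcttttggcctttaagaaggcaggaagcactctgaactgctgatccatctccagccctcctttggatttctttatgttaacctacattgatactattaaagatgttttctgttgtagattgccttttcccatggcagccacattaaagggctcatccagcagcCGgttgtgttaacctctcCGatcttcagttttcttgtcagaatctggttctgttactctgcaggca
Fgfr3: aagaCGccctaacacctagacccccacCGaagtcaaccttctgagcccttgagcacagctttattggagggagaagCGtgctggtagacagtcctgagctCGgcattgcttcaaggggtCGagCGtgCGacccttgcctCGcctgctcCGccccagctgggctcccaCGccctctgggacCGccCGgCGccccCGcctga
The 250 base window held 44% G or C and 2 CpG for Fgfr2, and 66.8% G or C and 19 CpG for Fgfr3, beside medians of 52.4% and 6 CpG over 32851 such windows of the RefSeq table. In these windows of the 7 genes that the table holds (all but Fgfr1 and Spry4), 4 motifs were searched on both strands, overlaps allowed: the cyclic AMP response element TGACGTCA, the RUNX site TGTGGT, the MEF2 site and the ETS site CCGGAAGT. None of the 7 genes had a match, and 1.55%, 14.0%, 3.20% and 2.88% of all windows had one. No match says only that these letters are not in these windows.

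Of the ligands, Fgf18, a growth factor for cartilage and bone, was a fibroblast and tendon transcript in this callus. Fibroblasts had 42.0 CPM (UMIs scaled to 1000000 UMIs of the summed cells) in the PTH and 47.9 CPM in the control library. Tendon cells, of which only the PTH library had enough, had 19.6 CPM. Chondrocytes had 0.839 CPM in the YKL, 0.149 CPM in the PTH and 0.505 CPM in the control library, from 11, 2 and 13 UMIs. Levels are given for classes with at least 50 cells in a library. Both fibroblast values thus lay above the tendon value and all 3 chondrocyte values far below it. No Fgf18 UMI was found in macrophages, in neutrophils or in the Ibsp-Mmp13-Spp1 cluster, where the floor of 3 UMIs allows up to 2.87 CPM in PTH macrophages, 2.35 CPM in control macrophages, 1.75 CPM in control neutrophils, and 2.91 (PTH) and 4.24 CPM (control) in the cluster.

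Fgf2, the basic FGF held in the matrix, was low in each class. Tendon cells had 18.6 CPM (PTH), fibroblasts 11.8 CPM (PTH) and 9.91 CPM (control), and chondrocytes 8.93 CPM (YKL), 9.19 CPM (PTH) and 13.2 CPM (control). The ranges of fibroblasts and chondrocytes overlapped, and so did those of fibroblasts and the Ibsp-Mmp13-Spp1 cluster (4.86 CPM PTH, 15.5 CPM control, from 5 and 11 UMIs). After each cell was thinned to 2000 UMIs, 1.96% of YKL, 1.83% of PTH and 3.04% of control chondrocytes held an Fgf2 UMI, beside 0.300% of control neutrophils, which should lack it. Unthinned, the shares were 19.5%, 13.1% and 16.7% of chondrocytes and 0.911% of neutrophils, at median depths of 30162, 17924 and 16551 UMIs and 3138 UMIs.

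The 3 receptors marked different cells. Fgfr1 was widest, with 228 CPM (PTH) and 159 CPM (control) in fibroblasts and 200 CPM (PTH) and 121 CPM (control) in the Ibsp-Mmp13-Spp1 cluster. Chondrocytes spanned 166 CPM (YKL), 84.8 CPM (PTH) and 54.5 CPM (control), and tendon cells had 85.6 CPM (PTH). In endothelial cells Fgfr1 was at 58.5 CPM (YKL), 64.2 CPM (PTH) and 51.7 CPM (control), and in pericytes at 58.6 CPM (PTH) and 33.8 CPM (control). The class called pericytes here is of pericytes or smooth muscle cells, which were not told apart. Tagln, Rgs5, Acta2, Myl9 and Myh11 were among its leading genes. Macrophages (19.1 CPM PTH, 12.5 CPM control) and neutrophils (4.66 CPM control) stood at the bottom, and control T or NK cells had 0 UMIs, which allows up to 12.1 CPM. Over libraries each class overlapped its neighbour in this order, from fibroblasts through the Ibsp-Mmp13-Spp1 cluster, chondrocytes and endothelial cells to pericytes. Within the PTH and within the control library, each of these classes lay above the next in that order. The cluster overlapped the chondrocytes only through YKL chondrocytes, and the YKL library had too few cells for a level of the cluster. Macrophages lay below all of these classes without overlap.

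Fgfr2 had a narrow range of cells. The Ibsp-Mmp13-Spp1 cluster had 71.9 CPM (PTH) and 43.8 CPM (control), chondrocytes had 17.9 CPM (YKL), 22.5 CPM (PTH) and 26.5 CPM (control), and tendon cells had 8.43 CPM (PTH). The cluster did not overlap the chondrocytes, and the chondrocytes did not overlap the tendon cells. Fibroblasts, rich in Fgfr1, had 1 Fgfr2 UMI in the PTH library and 4 in the control library (0.295 and 3.30 CPM). In thinned cells, 2.94% of YKL, 5.92% of PTH and 6.28% of control chondrocytes held an Fgfr2 UMI, beside 0.601% of control neutrophils; unthinned, these shares were 32.3%, 27.4%, 31.1% and 1.37%.

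Fgfr3 stood out in chondrocytes, at 263 CPM (YKL), 261 CPM (PTH) and 340 CPM (control). A cluster with 15 of 15 chondrocyte markers and 17.5% haemoglobin UMIs, left unnamed for its haemoglobin and holding 121 control cells, had 273 CPM. Every other class was far lower: the Ibsp-Mmp13-Spp1 cluster had 40.8 CPM (PTH) and 60.7 CPM (control), endothelial cells 25.6 CPM (YKL), 26.0 CPM (PTH) and 26.6 CPM (control), and fibroblasts 1.77 CPM (PTH) and 11.6 CPM (control). Control neutrophils had 47.8 CPM, from 82 UMIs in 6.83% of 439 cells. Those neutrophils fell in 2 clusters, and the one of 227 cells (all libraries together) had 11 of 15 chondrocyte markers raised. The endothelial CPM lay below the neutrophil one, while the thinned share of endothelial cells with an Fgfr3 UMI was 8.0% (YKL), 5.41% (PTH) and 7.64% (control). In thinned cells, 34.6% of YKL, 36.2% of PTH and 47.9% of control chondrocytes held an Fgfr3 UMI, beside 5.11% of control neutrophils; unthinned, the shares were 86.0%, 83.6%, 90.9% and 6.83%.

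Of the feedback inhibitors in the set, none was a chondrocyte gene in these libraries. Spry1, which binds adaptors and blocks RAS activation, was highest in the class of pericytes or smooth muscle cells, at 85.7 CPM (PTH) and 67.7 CPM (control). Endothelial cells followed without overlap, at 32.9 CPM (YKL), 43.7 CPM (PTH) and 32.0 CPM (control), and then fibroblasts, at 12.7 CPM (PTH) and 21.5 CPM (control). Chondrocytes had 0.382 CPM (YKL), 0.971 CPM (PTH) and 0.427 CPM (control), from 5, 13 and 11 UMIs.

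Spry4, a Sprouty known from vessels, kept to the same cells as Spry1. Pericytes had 31.4 CPM (PTH) and 41.2 CPM (control) and endothelial cells 25.6 CPM (YKL), 21.7 CPM (PTH) and 11.4 CPM (control), again without overlap. Chondrocytes had 0.839 CPM (YKL), 0.523 CPM (PTH) and 0.116 CPM (control), from 11, 7 and 3 UMIs. Over 19 units of cell class and library with at least 50 cells, Pearson's r of log2(CPM + 10) between Spry1 and Spry4 was 0.90, a description over units that share libraries and depth.

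Spry2 had another distribution. Control T or NK cells had 64.7 CPM, from 16 UMIs, pericytes 64.8 CPM (PTH) and 11.8 CPM (control), and fibroblasts 17.4 CPM (PTH) and 5.78 CPM (control). The 2 pericyte values were far apart, from 31 PTH and 8 control UMIs, and overlapped the fibroblast ones. Chondrocytes had 1.91 CPM (YKL), 1.42 CPM (PTH) and 0.505 CPM (control), from 25, 19 and 13 UMIs, which is too few for a ratio here.

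Dusp6, the cytoplasmic ERK phosphatase, was highest in endothelial cells among classes with at least 50 cells in a library, at 64.0 CPM (YKL), 68.9 CPM (PTH) and 74.6 CPM (control). The small Schwann or glial class had 149 CPM in PTH (107 to 201; 42 UMIs in 36 cells) and 60.1 CPM in control (28.8 to 111; 10 UMIs in 22 cells). Macrophages had 50.7 CPM (PTH) and 25.1 CPM (control), pericytes 27.2 CPM (PTH) and 11.8 CPM (control), and control neutrophils 26.2 CPM. The endothelial range lay above those of macrophages, pericytes and control neutrophils, while macrophages, neutrophils and pericytes overlapped. Chondrocytes had 2.90 CPM (YKL), 4.48 CPM (PTH) and 3.03 CPM (control). In thinned cells 0.735% of YKL, 0.987% of PTH and 0.595% of control chondrocytes held a Dusp6 UMI, beside 3.60% of control neutrophils (7.13%, 7.15% and 4.22% unthinned, beside 8.43% of neutrophils). The neutrophils held Dusp6 UMIs of their own, so they set no background for this gene.

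**Figure D1:**
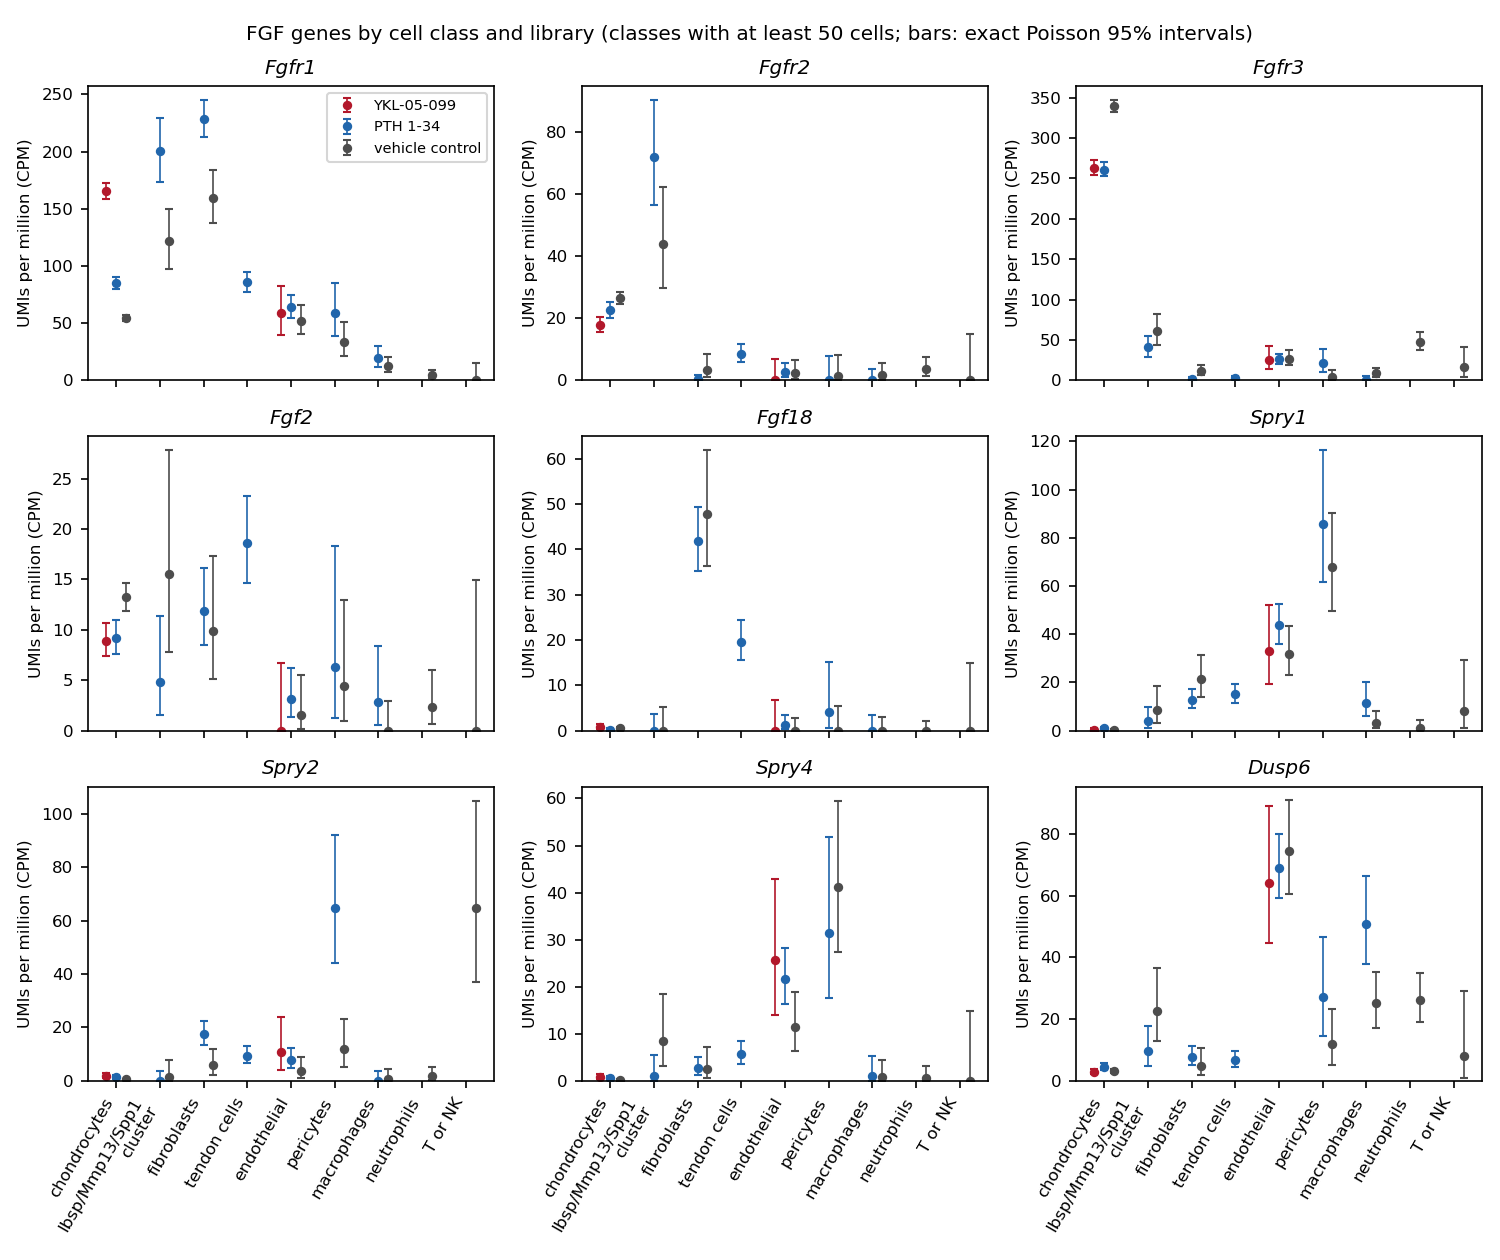
Level of each of the 9 genes (y axis, CPM, a scale per panel) by cell class (x axis) in the YKL, PTH and control libraries, for classes with at least 50 cells in that library. Points are summed UMIs over the class and bars exact Poisson 95% intervals; Fgfr3 peaks in chondrocytes (261 to 340 CPM), Fgf18 in fibroblasts (42.0 and 47.9 CPM) and Dusp6 in endothelial cells (64.0 to 74.6 CPM).

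By a rule on likeness, the 3 genes whose log2(CPM + 10) followed each receptor most closely over those 19 units were Ergic2 (r = 0.95), Sec62 (0.93) and Spsb1 (0.93) for Fgfr1. For Fgfr2 they were Sp7 (0.93), Wif1 (0.92) and Mmp13 (0.91), and for Fgfr3 Trpv4 (0.97), Chst11 (0.96) and Eps8l2 (0.96). They were ranked among 5752 genes, and the units share libraries and depth. Over 12 units of Col10a1 state and library in chondrocytes alone, a choice made after the data were seen, the genes most like Fgfr1 were Cd2ap (0.98), Runx2 (0.97) and Fabp3 (0.97), those most like Fgfr2 Pcolce (0.98), Gspt1 (0.98) and Aebp1 (0.98), and those most like Fgfr3 Trappc5 (0.93), Chst11 (0.92) and Tmem205 (0.91), among 2962 genes. Chst11 was the one gene named for the same receptor over both kinds of unit.

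Chondrocytes were then set in 4 states by the Col10a1 UMIs of each cell: low (under 100 CPM), lower intermediate (100 to 1000), upper intermediate (1000 to 10000) and high (10000 or more). The states hold 68, 113, 131 and 109 cells in the YKL library, 412, 142, 105 and 68 in the PTH library, and 846, 418, 139 and 136 in the control library. These are ranges of a score and not cell types: within 1.25-fold of the highest cut lay 28 YKL, 17 PTH and 32 control cells, and near the lowest cut 22, 44 and 151. Of the YKL chondrocytes 25.9% were high and 16.2% low, of the PTH ones 9.35% and 56.7%, and of the control ones 8.84% and 55.0%.

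Fgfr1 was the only receptor with its highest level in the high state, in every library. Along the 4 states from low to high it was at 88.9, 53.5, 157 and 355 CPM in the YKL library, at 40.2, 37.4, 183 and 320 CPM in the PTH library, and at 19.9, 27.5, 129 and 305 CPM in the control library. The high cells were above the low cells in every library, 3.99-fold (3.43 to 4.67; 7.84 in thinned cells) in YKL, 7.96-fold (6.85 to 9.27) in PTH and 15.3-fold (13.3 to 17.7) in control, and upper intermediate cells lay between the high cells and both lower states. The libraries were closest in the high state and farthest apart in the low one. In thinned cells, the share with an Fgfr1 UMI was 51.4%, 49.3% and 47.3% of YKL, PTH and control high cells and 10.6%, 7.39% and 3.61% of low cells.

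Fgfr2 took the opposite course. From low to high it was at 31.3, 28.6, 10.9 and 4.89 CPM in the YKL library, at 31.8, 15.4, 6.87 and 3.15 CPM in the PTH library, and at 31.9, 25.6, 12.3 and 6.85 CPM in the control library. The high cells were 6.40-fold lower in YKL (ratio 0.156, 0.0846 to 0.272; 0.463 with the mean of each cell's CPM), 10.1-fold lower in PTH (0.0989, 0.0267 to 0.256) and 4.66-fold lower in control (0.215, 0.116 to 0.364; 0.396 in thinned cells). The low cells of the 3 libraries were within 1 CPM of each other. The high levels rest on 16 YKL, 4 PTH and 14 control UMIs.

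Fgfr3 varied least of the receptors. It was at 211, 308, 324 and 175 CPM from low to high in the YKL library, at 247, 328, 258 and 207 CPM in the PTH library, and at 333, 354, 361 and 319 CPM in the control library. The ratio of high to low cells was 0.830 (0.733 to 0.940) in YKL, 0.837 (0.733 to 0.953) in PTH and 0.956 (0.880 to 1.04) in control, so no library passed 1.5-fold, and each had its highest level in an intermediate state. The high level was the lowest of the 4 in each library.

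Fgf2 was lower in high cells, as Fgfr2 was. It was at 11.3, 14.3, 7.89 and 2.44 CPM in the YKL library, at 12.3, 9.54, 1.72 and 0 CPM in the PTH library, and at 15.5, 12.1, 10.2 and 3.92 CPM in the control library. High cells were at least 5.22-fold lower in PTH, where 0 UMIs were set to a floor of 3 against 94 in low cells, and 3.95-fold lower in control (0.253, 0.108 to 0.507). With low cells under 300 and high cells from 3000 CPM Col10a1, the ratios were 0.0740 in PTH and 0.397 in control. The YKL pair, with 8 and 25 UMIs, was under the 50 UMIs needed for a call.

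The feedback inhibitors in the set had too few UMIs to show whether they had such a gradient. Dusp6 was at 3.17, 2.43, 5.09 and 0.611 CPM in YKL, at 3.80, 4.77, 6.30 and 5.50 CPM in PTH and at 3.84, 1.92, 2.54 and 1.47 CPM in control cells from low to high. Only the control pair had 50 UMIs, and its ratio of 0.383 had an interval that includes 1 (0.0767 to 1.18; 3 and 56 UMIs). Its direction turned to 1.40 with the mean of each cell's CPM, and it was at 0.647 with the cuts at 300 and 3000 CPM. Spry1, Spry2 and Spry4, and also Fgf18, had at most 10 UMIs in any state of any library.

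Counted by the rule of at least 1.5-fold with at least 50 UMIs over both sides, 2 of 3 members with enough UMIs differed between high and low YKL cells (Fgfr1 higher, Fgfr2 lower), where 39.5% of all genes so tested were past that fold in either direction. In the PTH library it was 3 of 4, Fgfr1 higher and Fgfr2 and Fgf2 lower (42% of all genes), and in the control library 4 of 5, Fgfr1 higher and Fgfr2, Fgf2 and Dusp6 lower (41.1%), Dusp6 with the turn in direction given above. With so many genes past that fold and 3 to 5 members tested, nothing is read of the members as a set, and what these counts show is the direction of single genes, Fgfr1 higher and Fgfr2 lower in all 3 libraries. The median log2 ratio of high over low cells over all genes tested was −0.14 in PTH and −0.11 in control, and no call of a member with UMIs on both sides changed when ratios were taken relative to it.

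**Figure D2:**
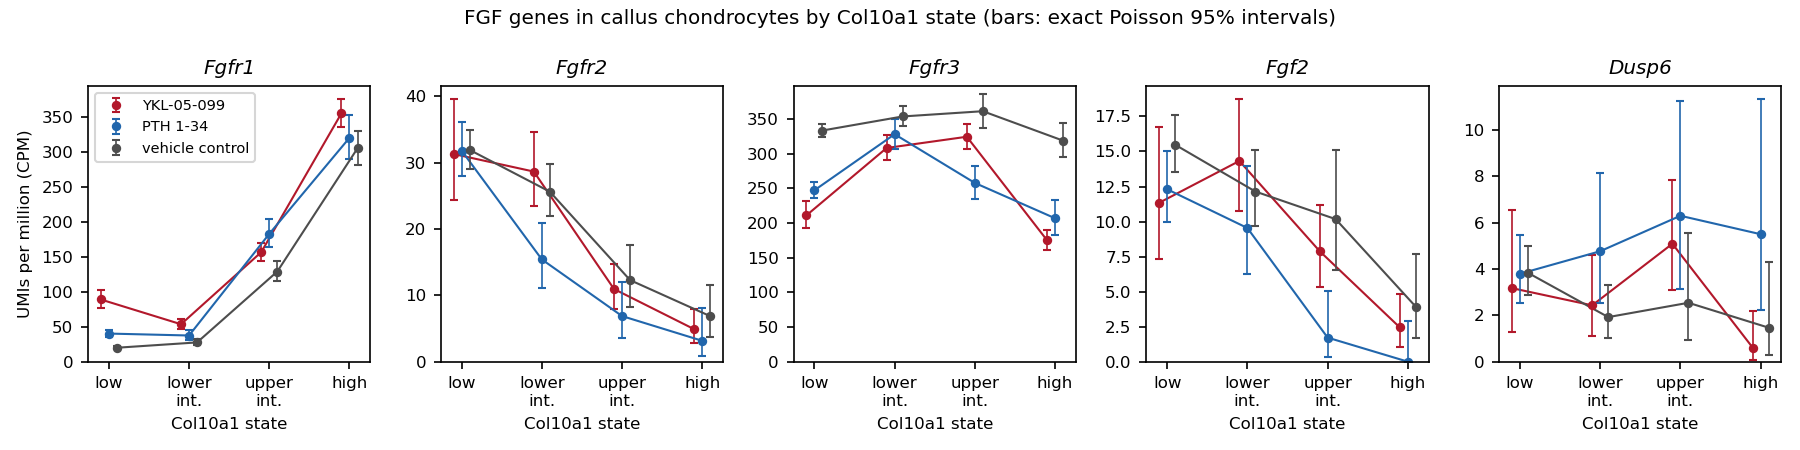
CPM (y axis, a scale per panel) of Fgfr1, Fgfr2, Fgfr3, Fgf2 and Dusp6 in chondrocytes of the 4 Col10a1 states (x axis, low to high) in the YKL, PTH and control libraries. Bars are exact Poisson 95% intervals; Fgfr1 reaches 355, 320 and 305 CPM in the high state while Fgfr2 drops to 4.89, 3.15 and 6.85 CPM.

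As a share of the UMIs of the 3 receptors together, Fgfr1 made up 26.8%, 13.7%, 31.8% and 66.4% from low to high in the YKL library. It made up 12.6%, 9.83%, 40.8% and 60.4% in the PTH library and 5.17%, 6.77%, 25.7% and 48.4% in the control library. In high cells Fgfr1 thus gave most receptor UMIs in YKL (exact binomial interval 64.1 to 68.6%) and PTH (56.6 to 64.1%), and in control about as many as Fgfr3 (45.6 to 51.1%, beside 50.5% for Fgfr3). Fgfr2 went down to 0.914% (YKL), 0.593% (PTH) and 1.09% (control) in high cells, against 9.45%, 9.97% and 8.29% in low cells. Capture can differ between genes, so the shares are set side by side between states and not read as amounts of protein.

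**Figure D3:**
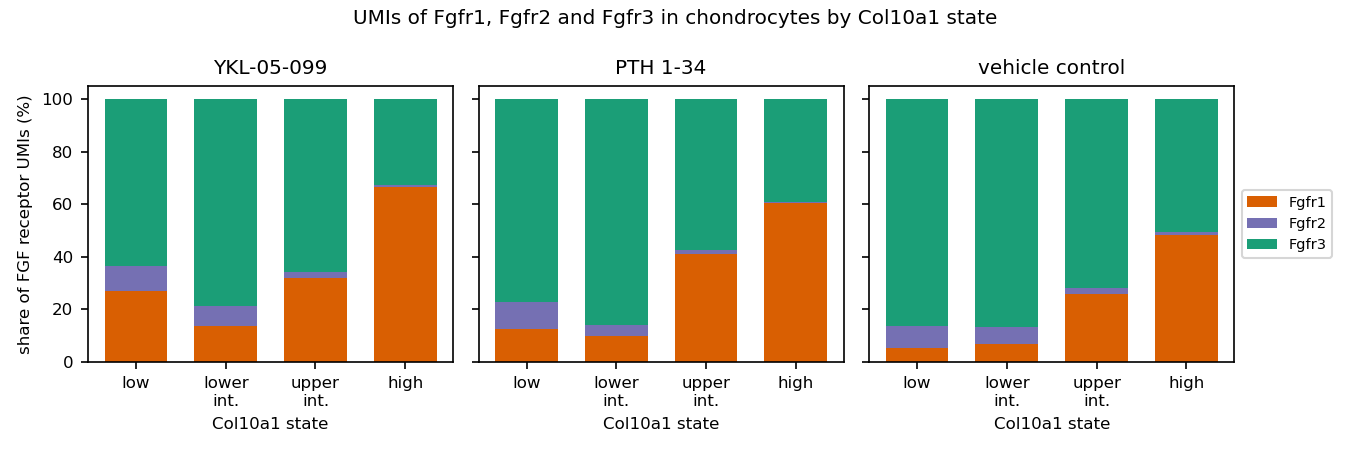
Share of the UMIs of Fgfr1, Fgfr2 and Fgfr3 taken by each receptor (y axis, percent) in chondrocytes of the 4 Col10a1 states (x axis), for the YKL, PTH and control libraries from left to right. The Fgfr1 part grows to 66.4%, 60.4% and 48.4% in the high state.

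Between libraries, Fgfr1 was the member that differed most in chondrocytes. It was at 166 CPM in YKL, against 54.5 CPM in control, a ratio of 3.04 (2.84 to 3.25). It was 1 of 5 members with enough UMIs and alone among them in passing 1.5-fold, where 19% of all genes tested did so. The other members with enough UMIs were under that fold: Fgfr2 at 0.674 (0.579 to 0.783), Fgfr3 at 0.775 (0.745 to 0.806), Fgf2 at 0.676 (0.543 to 0.837) and Dusp6 at 0.957 (0.632 to 1.43). In thinned cells Fgfr2 (0.492), Fgfr3 (0.646) and Fgf2 (0.631) were past 1.5-fold lower too. The median log2 ratio of the 5 members was −0.37, and that of all 11549 genes tested −0.04.

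PTH chondrocytes differed from control in the same member and by less. Fgfr1 was at 84.8 CPM in PTH, against 54.5 CPM in control (1.56, 1.44 to 1.68), 1 of 5 members past 1.5-fold where 9.41% of all genes were. That call ended in thinned cells (1.40), with the mean of each cell's CPM (1.43) and with marked doublets kept and clusters redrawn (1.49). Fgfr3 was at 0.768 (0.738 to 0.799), Fgfr2 at 0.849 (0.739 to 0.974), Fgf2 at 0.696 (0.562 to 0.858) and Dusp6 at 1.48 (1.04 to 2.10). Fgf2 was past 1.5-fold lower in thinned cells (0.590), with the mean of each cell's CPM (0.633) and with states weighted equally (0.565), and Dusp6 past it with equal weights (2.08) and with marked doublets kept (1.51). The median log2 ratio of the 5 members was −0.24, and that of all 11572 genes tested 0.00. This comparison shares the control library with the previous one, so likeness between them is not counted as a result.

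YKL chondrocytes had more Fgfr1 than PTH chondrocytes, 166 CPM against 84.8 CPM (1.95, 1.82 to 2.10), and less Dusp6, 2.90 CPM against 4.48 CPM (0.647, 0.419 to 0.987), from 38 and 60 UMIs. These were 2 of 5 members past 1.5-fold, where 14.7% of all genes were, and the Dusp6 call ended with a mitochondrial maximum of 5% (0.70). Fgfr3 was at 1.01 (0.962 to 1.06). Fgf2 was at 0.971 (0.748 to 1.26), and at 1.53 with states weighted equally. Fgfr2 was at 0.794 (0.666 to 0.945), at 0.491 in thinned cells and at 1.32 with states weighted equally, so neither gene kept 1 direction.

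The Fgfr1 difference was smaller with the states weighted equally, as a ratio of the mean CPM of the 4 states. Fgfr1 was then at 1.36 for YKL over control, 1.21 for PTH over control and 1.13 for YKL over PTH, each under 1.5-fold. States with more Fgfr1 weigh more in that mean. These values thus lean to the high cells and are not an average of the ratios within states. Within high cells it was at 355 CPM in YKL, 320 CPM in PTH and 305 CPM in control, with ratios to control of 1.16 (1.06 to 1.29) and 1.05 (0.924 to 1.19). Within low cells the libraries stayed apart: 88.9 CPM in YKL and 40.2 CPM in PTH, against 19.9 CPM in control, or 4.46-fold (3.70 to 5.36; 2.84 in thinned cells) and 2.02-fold (1.71 to 2.38). In low cells 2 of 5 members passed 1.5-fold for YKL over control (21.4% of all genes), 1 of 5 for PTH over control (10.9%), and 1 of 4 for YKL over PTH (19%), Fgfr1 at 2.21 (1.84 to 2.66). In lower intermediate cells YKL was 1.94-fold higher than control (1.58 to 2.39; 1.28 in thinned cells, under the call) and PTH 1.36-fold (1.06 to 1.74; 1.75 in thinned cells, past it), and in upper intermediate cells the ratios were 1.21 (1.06 to 1.40) and 1.42 (1.21 to 1.66). For YKL over control 1 of 4 members passed in lower intermediate cells (12.5% of all genes) and 0 of 4 in upper intermediate cells (10.3%). For PTH over control it was 1 of 4 (12.3%), which was Fgfr2, lower, and not Fgfr1, and 0 of 2 (13.9%).

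The low cells differed in more than Fgfr1. The 11 osteoblast-lineage markers summed to 23738 CPM in YKL, 16895 CPM in PTH and 10782 CPM in control low cells, with the same 9 at 1 UMI or more and Dmp1 and Bglap3 at 0 in each library. In the high cells, where Fgfr1 ratios were under 1.5-fold, that sum was 6389, 7300 and 6486 CPM, with 10, 9 and 10 of 11 detected. Ucma, a gene of immature cartilage, was at 287 CPM in YKL, 2185 CPM in PTH and 2297 CPM in control low cells. The part of these in the Fgfr1 difference was not tested, nor was that of depth and of the Col10a1 UMIs found outside chondrocytes.

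By cluster, Fgfr1 was at 467 CPM (YKL), 389 CPM (PTH) and 375 CPM (control) in cluster 0, led by Col10a1, Ibsp and Ihh. In cluster 1, led by Ibsp, Hapln1 and Snorc, it was at 90.6, 117 and 103 CPM in YKL, PTH and control, and in cluster 3, led by Hapln1, Cnmd and Omd, at 16.4 CPM (PTH) and 19.1 CPM (control). There the libraries lay close together. They stood apart in cluster 2, led by Hapln1 and Snorc, at 56.4, 20.9 and 22.3 CPM, and in cluster 5, led by Ucma, at 108, 35.8 and 18.8 CPM, in YKL, PTH and control. The YKL part of cluster 5 is 38 cells.

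Fgfr3 went the other way within states. High cells had 175 CPM in YKL and 207 CPM in PTH, against 319 CPM in control, ratios of 0.549 (0.490 to 0.616) and 0.649 (0.560 to 0.750), both past 1.5-fold lower. Each was 1 of 2 members with enough UMIs in high cells, where 15.5% (YKL) and 13% (PTH) of all genes were past that fold. The PTH call ended with a mitochondrial maximum of 5% (0.736) and with median scaling (0.678). Low YKL cells were lower too, at 0.633 (0.574 to 0.696), a call that ended with median scaling (0.669) and with the mean of each cell's CPM (0.703). The other ratios of Fgfr3 to control lay between 0.714 and 0.928 in the main counting, of which PTH upper intermediate cells were at 0.578 in thinned cells.

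Within low cells Fgfr2 was at 0.981 (0.750 to 1.26) for YKL and 0.997 (0.850 to 1.17) for PTH, and Fgf2 at 0.733 (0.464 to 1.11) and 0.795 (0.618 to 1.02). In thinned low cells Fgf2 was past 1.5-fold lower in both, at 0.434 for YKL and 0.635 for PTH. In lower intermediate cells Fgfr2 was lower in PTH, at 15.4 CPM against 25.6 CPM in control (0.602, 0.419 to 0.847; 0.717 in thinned cells). In upper intermediate PTH cells Fgf2 was at 0.169 of control (0.0326 to 0.556), from 3 and 24 UMIs, under the 50 needed for a call. Between treatments Fgfr2 in lower intermediate cells was 1.86-fold higher in YKL than in PTH (1.29 to 2.73), and Fgf2 was at 1.5 (0.923 to 2.50), so 2 of 4 members passed where 12.5% of all genes did. In upper intermediate cells 1 of 3 passed (12% of all genes), Fgfr2 at 1.59 (0.825 to 3.32), and in high cells 0 of 2 (12.3%).

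**Figure D4:**
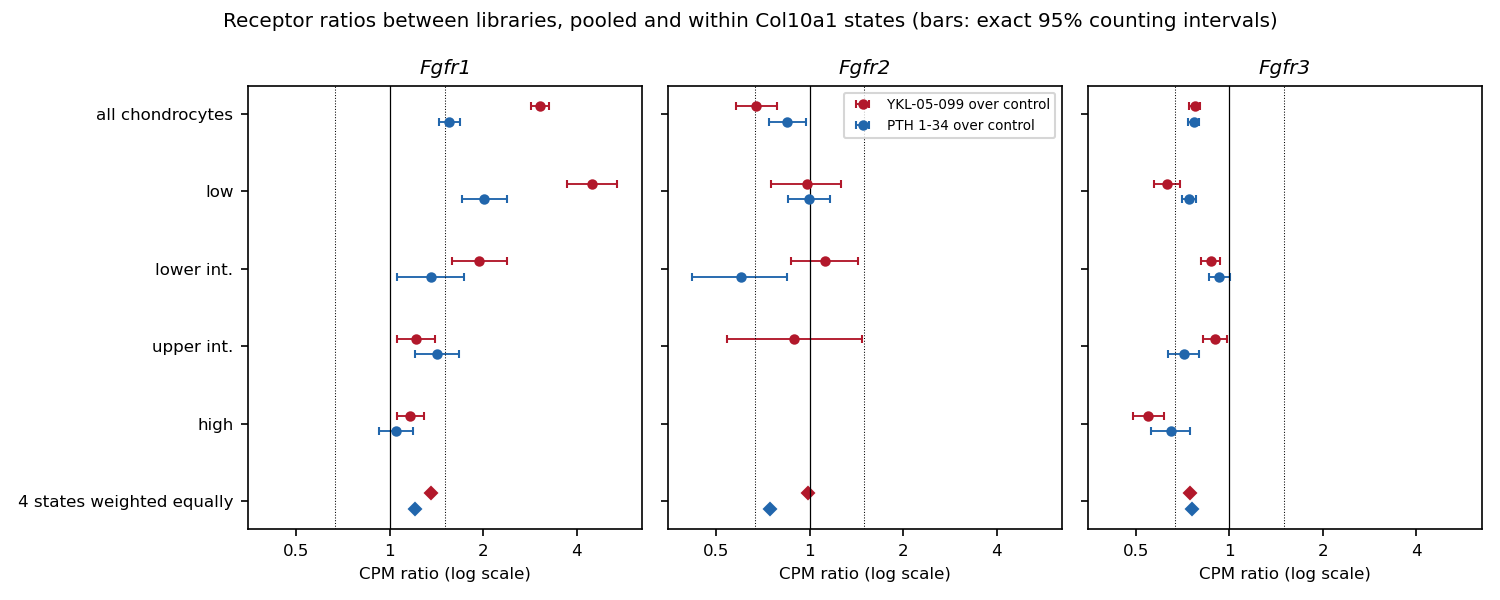
CPM ratios over control (x axis, log scale) of Fgfr1, Fgfr2 and Fgfr3 in all chondrocytes, within each Col10a1 state and with the states weighted equally (rows), for YKL and PTH. Bars are exact 95% counting intervals, diamonds have none and dotted lines mark 1.5-fold; Fgfr1 goes from 3.04 and 1.56 over all cells to 1.36 and 1.21 with equal weights.

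In endothelial cells, for YKL over control, Fgfr1 stood at 1.13 (0.719 to 1.75), Spry1 at 1.03 (0.558 to 1.83) and Dusp6 at 0.858 (0.566 to 1.27), so 0 of 3 members with enough UMIs passed 1.5-fold, where 17.2% of all genes did. Spry1 was past it, at 0.306, with a mitochondrial maximum of 5%. For PTH over control Fgfr1 was at 1.24 (0.930 to 1.67), Spry1 at 1.37 (0.951 to 2.0; 2.65 in thinned cells and 0.813 with that maximum), Dusp6 at 0.924 (0.718 to 1.20; 0.640 in thinned cells) and Fgfr3 at 0.976 (0.636 in thinned cells). Spry4 was at 21.7 CPM in PTH, against 11.4 CPM in control, or 1.90-fold higher (1.06 to 3.62), from 55 and 15 UMIs, the 1 of 5 members past 1.5-fold where 11.5% of all genes were. YKL endothelial cells had 25.6 CPM Spry4, from 14 UMIs. For YKL over PTH 0 of 5 members passed 1.5-fold, where 17.4% of all genes did. Red cell markers summed to 1663 CPM (YKL), 2678 CPM (PTH) and 14875 CPM (control) in these cells and neutrophil markers to 10.97, 36.2 and 3801 CPM, with 5, 5 and 6 of 6 and 4, 8 and 11 of 13 detected. Their part in the ratios was not tested.

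The 3 endothelial clusters differed in their inhibitors. In the cluster led by Stmn2 and Cldn5, Dusp6 was at 108 CPM (PTH) and 116 CPM (control), from 36 and 25 UMIs, while Spry1 had 2 UMIs in PTH (6.0 CPM) and 0 in control. In the cluster with Egfl7 and Igfbp5 among its leading genes, Dusp6 was at 46.5 CPM (YKL), 17.1 CPM (PTH) and 26.0 CPM (control), and Spry1 at 19.9 CPM (YKL), 99.9 CPM (PTH) and 34.6 CPM (control). There PTH had 41 Spry1 and 7 Dusp6 UMIs, control 8 and 6, and YKL 3 and 7, so the 2 smaller libraries give no firm level. The cluster led by Fabp4 and Plvap had both, Dusp6 at 64.2, 73.5 and 77.2 CPM and Spry1 at 45.8, 37.9 and 39.2 CPM in YKL, PTH and control. Spry4 was there at 30.6 CPM (YKL), 25.1 CPM (PTH) and 16.1 CPM (control). Clusters were built from all genes, so these contrasts are a description with no test.

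**Figure D5:**
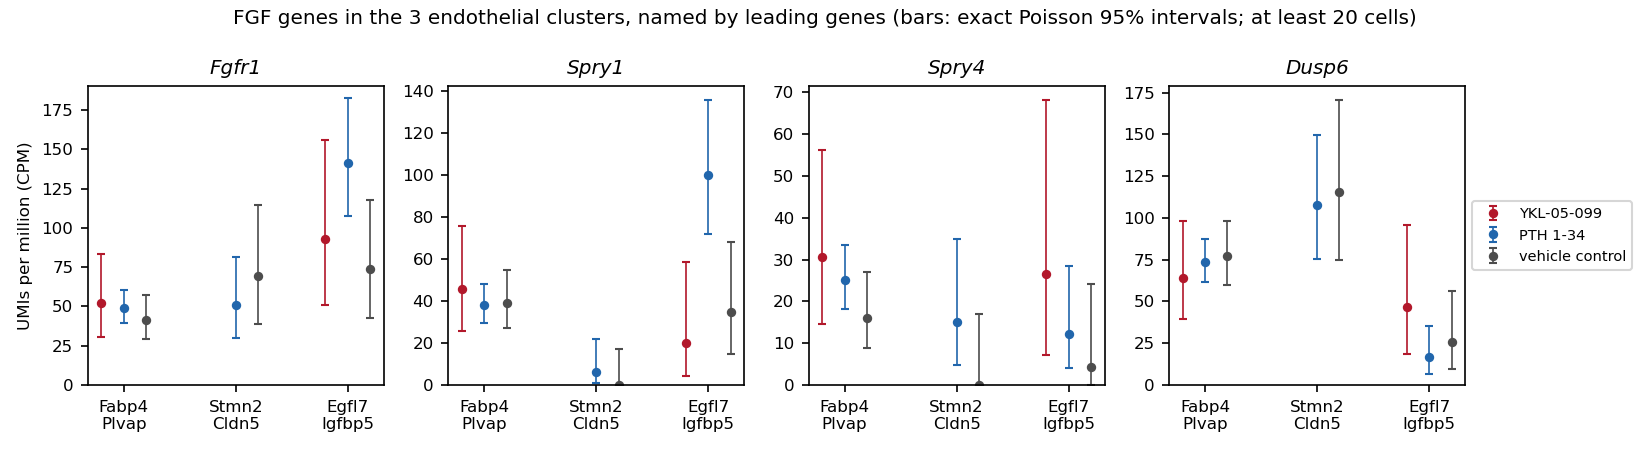
CPM (y axis, a scale per panel) of Fgfr1, Spry1, Spry4 and Dusp6 in the 3 endothelial clusters (x axis, by leading genes) in the YKL, PTH and control libraries, where the cluster had at least 20 cells of the library. Bars are exact Poisson 95% intervals; Dusp6 is at 108 and 116 CPM in the Stmn2 and Cldn5 cluster, where Spry1 is at 6.0 CPM and 0.

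Other classes allowed PTH over control only. In fibroblasts Fgfr1 was at 228 CPM in PTH, against 159 CPM in control (1.43, 1.22 to 1.69; 1.69 in thinned cells), and Fgf18 at 0.876 (0.641 to 1.21). Spry2 was 3.02-fold higher (1.38 to 7.83), from 59 and 7 UMIs, and Spry1 lower at 0.592 (0.355 to 1.00), from 43 and 26 UMIs, so 2 of 5 members passed 1.5-fold where 16.8% of all genes did. The Spry1 call ended with a mitochondrial maximum of 5% (0.689) and with the mean of each cell's CPM (0.677).

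In the Ibsp-Mmp13-Spp1 cluster Fgfr1 was at 200 CPM in PTH, against 121 CPM in control (1.65, 1.27 to 2.14), and Fgfr2 at 71.9 CPM, against 43.8 CPM (1.64, 1.07 to 2.58). These were 2 of 3 members past 1.5-fold, where 21.2% of all genes were, and Fgfr3 was at 0.672 (0.428 to 1.05). In macrophages Dusp6 was 2.02-fold higher in PTH (1.28 to 3.24; 3.06 with a mitochondrial maximum of 5%), 1 of 1 member with enough UMIs, where 28.7% of all genes were past 1.5-fold and their median log2 ratio was 0.21. In pericytes Fgfr1 was at 1.73 (0.961 to 3.14; 2.75 with that maximum), 1 of 2 members where 15.4% of all genes were past that fold, and its direction turned to 0.744 with the mean of each cell's CPM.

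Of 68 other FGF pathway genes, 40 had enough UMIs in chondrocytes for YKL over control, and 6 were higher and 3 lower, where 19% of all genes were past 1.5-fold in either direction. The count is near that background. The ligand Fgf7 was 2.02-fold higher (1.46 to 2.79) and Shisa2, of a family known in frogs to hold FGF receptors in the endoplasmic reticulum, 2.26-fold (1.68 to 3.06). Dusp5, the nuclear ERK phosphatase, was at 18.9 CPM in YKL, against 6.76 CPM in control, or 2.80-fold (2.30 to 3.42). Also higher over all chondrocytes were Spp1 (2.18) and Mmp13 (3.40). Lower were the receptor partner Flrt2 (0.408, 0.259 to 0.622), the ligand carrier Fgfbp3 (0.578, 0.332 to 0.963) and the cyclin gene Ccnd1 (0.552, 0.366 to 0.814). Within states Mmp13 was higher in YKL than in control only in high cells (777 CPM against 383 CPM). From low to upper intermediate cells it was at 3.17, 2.97 and 493 CPM in YKL, against 11.8, 33.9 and 599 CPM. Spp1 was higher in YKL only in low cells (1421 CPM against 375 CPM). In the states above it was at 425, 5368 and 4742 CPM, against 790, 6203 and 5774 CPM.

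For PTH over control 41 had enough UMIs, and 4 were higher and 0 lower, where 9.41% of all genes were past 1.5-fold. That count too is near the background. Dusp5 was at 12.8 CPM in PTH, against 6.76 CPM in control (1.89, 1.52 to 2.35), Flrt2 at 2.22 (1.74 to 2.83), Shisa2 at 1.57 (1.13 to 2.17) and Ccnd1 at 1.64 (1.25 to 2.15). Flrt2 and Ccnd1 were thus lower in YKL and higher in PTH, each set against the same control library, and for YKL over PTH they were at 0.184 (0.117 to 0.278) and 0.337 (0.222 to 0.501). Markers of G2 and M phase summed to 31.1 CPM in YKL, 218 CPM in PTH and 158 CPM in control chondrocytes, with 12 of 12 detected in each. Genes of digestion and the immediate early response summed to 5513, 5055 and 3360 CPM, also with 12 of 12. Their part in these ratios was not tested.

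Along the states, 29 of the 68 had enough UMIs in YKL, with 8 higher and 6 lower in high cells (39.5% of all genes past 1.5-fold), 33 in PTH, with 7 and 7 (42%), and 35 in control, with 11 and 8 (41.1%). With such backgrounds nothing is read of the pathway as a set. Dusp5 was higher in high cells of each library, at 40.3 CPM against 5.44 CPM in YKL low cells (7.41-fold), 59.8 against 4.71 CPM in PTH (12.7-fold) and 22.0 against 3.49 CPM in control (6.31-fold). Like Fgfr1, it was thus higher in high cells in all 3 libraries. Fgfrl1, a receptor without a kinase, was lower in high cells, at 0.191 in YKL, 0.181 in PTH and 0.247 in control, as was Myc, at 0.105, 0.121 and 0.209.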

How the data were processed

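Libraries of day 7 callus from 3 groups, with 1 library each, were used. Each deposited matrix gives unnormalized UMI counts by gene and barcode, and the file headers name Cell Ranger 4.0.0. The submitters' processing notes name Seurat and mm10. The authors' cell filters, annotation and use of strand are not given in the sources used here. The lowest barcode total was 500 UMIs, and library totals were 19424073 (YKL), 33981167 (PTH) and 55250651 UMIs (control).

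Kept were cells with 500 or more genes and a mitochondrial share of 10% or less, without barcodes marked by Scrublet. They were clustered with scanpy 1.11.5 (10000 UMIs per cell, 2000 variable genes, 30 components, 15 neighbours, Leiden resolution 0.8, no integration). Clusters were named from markers of 18 classes by the highest mean log2 fold, and only where the first leading marker was of that class, a rule set after the cluster tables were seen. UMIs were summed by class, state and library and given as CPM. Levels carry exact Poisson, shares exact Clopper-Pearson and ratios exact conditional binomial 95% intervals. A ratio needed 50 UMIs over both sides, was called at 1.5-fold, and had 0 UMIs set to a floor of 3. Intervals and floors cover counting error only. The code was tested on simulated data.

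The members and lists were chosen with earlier results of these data known. All 9 members are named; of the other pathway genes up to 6 a direction, ranked by how far the near end of the interval lay from 1; and for each receptor the 3 genes of highest Pearson correlation of log2(CPM + 10), at 50 CPM or more in 1 unit, leaving out mitochondrial, ribosomal protein and predicted genes. Dusp5, Fgfrl1 and Myc were named along the states after their values were seen. Some pathway genes that this rule would name are counted but not reported here. Positions come from GENCODE vM21 (GRCm38), sequences from RefSeq (GRCm38.p6). Alternatives changed the filters, depth, scaling, weighting and cuts. With marked doublets kept, clusters were drawn and named anew, so those values also carry redrawn classes. The stricter filters kept the main classes.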

Additional observations from a re-analysis of the deposited data

Results flagged for a closer look

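Barcodes that the filters left out (900 YKL, 3379 PTH and 5093 control) carry UMIs of the same genes. Listed first are members at least 1.5-fold above control, with an interval clear of 1 and 50 or more UMIs over both sides. Fgfr1 was at 38.1 CPM in YKL, against 9.55 CPM in control, 3.99-fold higher (3.19 to 4.98). Fgfr1 was at 28.0 CPM in PTH, against 9.55 CPM in control, 2.93-fold higher (2.38 to 3.60). Fgfr2 was at 4.52 CPM in PTH, against 2.06 CPM in control, 2.20-fold higher (1.34 to 3.59). Spry1 was at 7.40 CPM in PTH, against 1.42 CPM in control, 5.19-fold higher (3.22 to 8.58). Spry4 was at 5.62 CPM in PTH, against 1.42 CPM in control, 3.94-fold higher (2.37 to 6.67). Dusp6 was at 9.32 CPM in PTH, against 4.38 CPM in control, 2.13-fold higher (1.52 to 2.97). Under 50 UMIs, PTH also stood above control for Spry2 (7.53, 3.57 to 17.3), Fgf18 (4.01, 1.77 to 9.48) and Fgf2 (3.32, 1.71 to 6.53). Fgfr3 was level in these barcodes, at 0.947 (0.768 to 1.16) for YKL and 0.956 (0.813 to 1.12) for PTH. No share over all genes is given for these barcodes, so nothing is read of the members as a set. The cell classes behind these barcodes were not assigned, so their part in the ratios was not tested.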

How the results depend on the processing

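No paired analysis was possible because each group has 1 library, and for the same reason no replicate could be left out. Over 74 member ratios and 458 values under alternatives, 403 lay within the counting interval of the main value and 53 outside. A further 2, both of ratios called past 1.5-fold, turned in direction. Those were Fgfr1 in pericytes, PTH over control (0.744 with the mean of each cell's CPM), and Dusp6 in high over low control chondrocytes (1.40 with that mean, from 3 and 56 UMIs). Some ratios not called in the main counting also crossed 1. For YKL over PTH in chondrocytes, equal weights moved Fgfr2 from 0.794 to 1.32 and Fgf2 from 0.971 to 1.53. In endothelial cells Spry1 did so with a mitochondrial maximum of 5%. It went from 1.37 to 0.813 for PTH over control and from 1.03 to 0.306 for YKL over control. Another 29 values were left out for having under 20 UMIs or a side at 0, of which 23 were thinned. Ratios within states and in classes beside chondrocytes and endothelial cells, and the added haemoglobin-rich cluster, were chosen after the data were seen. Thinned to 2000 UMIs per cell, the number of members past 1.5-fold became 4 of 4 in chondrocytes for YKL over control (main 1 of 5), 3 of 4 in endothelial cells for PTH over control (main 1 of 5), and 1 of 2 between states in YKL and in PTH (main 2 of 3 and 3 of 4). Of all genes so counted in thinned cells, in that order, 28.7%, 23.8%, 47.9% and 50.4% were past that fold (main 19%, 11.5%, 39.5% and 42%). With the mean of each cell's CPM the number was 2 in chondrocytes for YKL over control (21.2% of all genes) and 2 in endothelial cells for PTH over control (20%). With states weighted equally it was 0 for YKL over control (12.1% of all genes) and 2 for PTH over control (10.2%), Dusp6 at 2.08 and Fgf2 at 0.565. With a mitochondrial maximum of 5% it was 1 for YKL over PTH in chondrocytes (14.8% of all genes). With that maximum it was 1 for YKL over control in endothelial cells (26.8%), Spry1 at 0.306. With the haemoglobin-rich cluster added it was 2 for YKL over control (18.7% of all genes), with Fgf2 at 0.666. Fgfr1 for PTH over control was under 1.5-fold in thinned cells (1.40), with the mean of each cell's CPM (1.43) and with marked doublets kept (1.49), and for YKL over control it was under it with equal weights alone (1.36). The cause of these changes was not tested. Depth limits Spry1, Spry2, Spry4 and Fgf18 in chondrocytes, where 1 UMI was a large part of each level, and members in high cells of the PTH library.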
